A study of Peromyscus maniculatus and Peromyscus polionotus and Peromyscus maniculatus x Peromyscus polionotus with 18 samples.

Results

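Il33, the gene of the cytokine interleukin-33, was described together with the 2 chains of its receptor, Il1rl1 (the ligand-binding chain ST2) and Il1rap (the accessory chain), in brains of *Peromyscus* mice. These 3 genes of the 20731 in the table of the parental species were taken by name, and 2 of them, Il33 and Il1rap, also have a row among the 11928 genes of the table of allele counts of the hybrids. Il33 was selected on its measured values, TPM in *P. maniculatus* and allele counts in F1 hybrids, because 1 library of each stood apart in it. Its levels and allele shares are therefore given as a description, and no comparison of groups or alleles was tested on them.

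The series compared whole-brain RNA of adult males, 50 to 80 days old, of *P. maniculatus* (the deer mouse), *P. polionotus* (the oldfield mouse) and F1 hybrids of the 2 species. Each kind of animal was killed after either a trial with burrowing in sand or a control trial, which gave 6 groups of 3 libraries. All animals had passed earlier trials in the enclosure, and cohorts were drawn at random. The labels write the cross with *P. maniculatus* first and do not name the maternal species. The protocols speak of individual animals, each library was taken as 1 animal, and p-values measure the spread between these animals.

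Interleukin-33 is a member of the interleukin-1 family that is held in the nucleus and released when cells are damaged, which is why it is called an alarmin. Outside the cell it binds ST2, the ST2 chain recruits the accessory chain, and the adaptor MyD88, IRAK kinases and TRAF6 pass the signal to NF-kappaB and MAP kinases. In the rodent brain it is known chiefly from oligodendrocytes and astrocytes, and microglia are among the cells that respond to it. The accessory chain also serves the interleukin-1 and interleukin-36 receptors.

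The parental libraries were deposited as TPM, which keep no read depth. The hybrid libraries held 11415175 to 53906964 counts assigned to an allele. Maniculatus control replicate 3 stood apart from the other 5 maniculatus libraries in 499 of 14366 genes (3.47%) by Dixon's outlier criterion (the gap to the nearest library over the whole range, above 0.625), burrowing replicate 2 did so in 455, and each of the other 4 in 39 to 99. F1 burrowing replicate 2 stood apart in allele share in 747 of 9354 genes (7.99%), against 94 to 222 genes for each of the other 5 hybrids. Its level summed over both alleles stood apart in 908 of 11928 genes (7.61%), against 17 to 61 genes for each of the other 5. Polionotus control replicate 2 stood apart among the polionotus libraries in 1233 genes (8.58%), and its Il33 level was in the middle of its group. Il33 values are given with and without the library that stood apart in it. For gene lists with reported counts, the calls without 1 of these libraries are given where they changed.

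Il33 was low in 5 of 6 maniculatus brains and high in the remaining one. The maniculatus control libraries held 2.77, 2.77 and 33.7 TPM in replicates 1, 2 and 3, and the maniculatus burrowing libraries held 2.41, 2.504 and 2.77 TPM. Polionotus control libraries held 22.7, 23.0 and 23.4 TPM, and polionotus burrowing libraries held 14.2, 24.8 and 30.1 TPM. The high library, maniculatus control replicate 3, was above every polionotus library. The other 5 maniculatus libraries were below every polionotus library and lay within 2.41 to 2.77 TPM.

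Maniculatus control replicate 3 held 12.2 times the median of the other 5 maniculatus libraries and 1.46 times the polionotus mean. Without it the maniculatus mean was 2.64 ± 0.175 TPM (SD, n = 5), against 23.0 ± 5.14 TPM (SD, n = 6) in *P. polionotus*, a ratio of 8.72. With it the maniculatus mean was 7.82 ± 12.7 TPM (SD, n = 6) and the ratio 2.94. The 4 groups, from low to high, were maniculatus burrowing (2.56 ± 0.187 TPM), maniculatus control (13.1 ± 17.9), polionotus burrowing (23.0 ± 8.12) and polionotus control (23.0 ± 0.305, SD, n = 3 each). Neighbours in that order overlapped or differed by less than their spread.

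**Figure D1:**
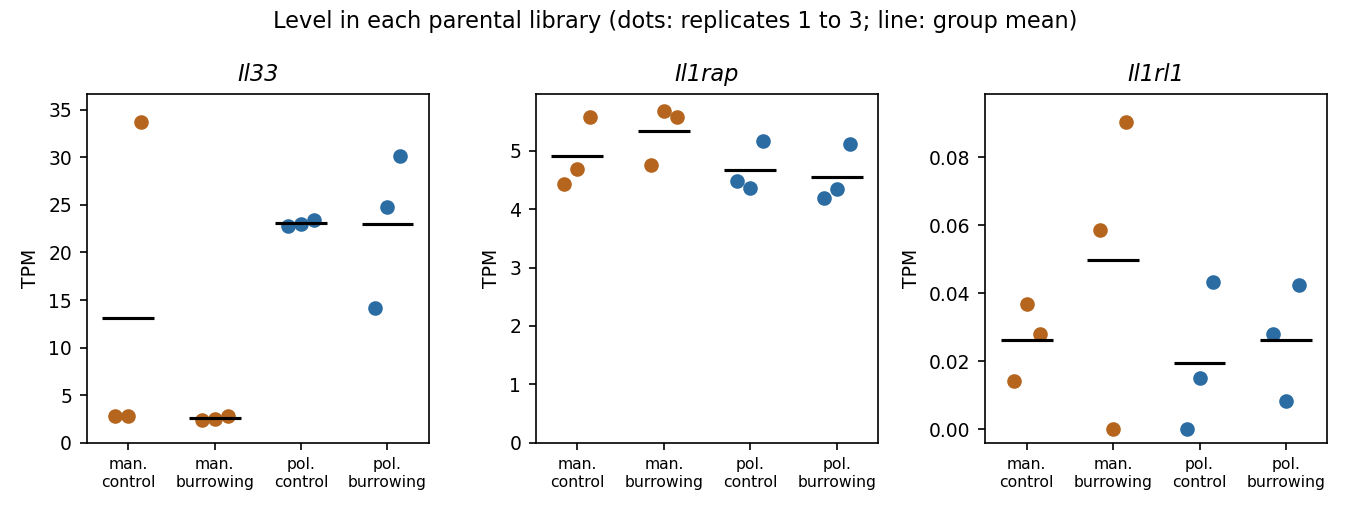
Level of Il33, Il1rap and Il1rl1 in each of the 12 parental libraries, in TPM, by species and trial (man., *P. maniculatus*; pol., *P. polionotus*); each dot is 1 library, each line is the mean of 3, and the 3 vertical scales differ. Il33 in maniculatus control replicate 3 (33.7 TPM) sits above all polionotus libraries while the other 5 maniculatus libraries sit between 2.41 and 2.77, Il1rap differs little between groups, and Il1rl1 stays at or below 0.0904 TPM.

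In the F1 hybrids, where both alleles share 1 cell environment, the maniculatus allele of Il33 gave more counts than the polionotus allele in 5 of 6 animals. In F1 control replicate 1 the maniculatus allele had 795 counts and the polionotus allele 453, a polionotus share of 36.3% (95% Wilson interval 33.7 to 39.0%). F1 control replicate 2 had 803 and 414 counts (34.0%, 31.4 to 36.7%), and F1 control replicate 3 had 4132 and 2040 (33.1%, 31.9 to 34.2%). F1 burrowing replicate 1 had 1727 and 871 counts (33.5%, 31.7 to 35.4%), and F1 burrowing replicate 3 had 1951 and 1081 (35.7%, 34.0 to 37.4%). These 5 animals lay within a few points of each other, and their maniculatus allele gave 1.75 to 2.02 times the counts of the polionotus allele.

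F1 burrowing replicate 2 had 140 maniculatus and 1432 polionotus counts of Il33, a polionotus share of 91.1% (95% Wilson interval 89.6 to 92.4%; these intervals cover counting error only). The maniculatus allele was at 4.83 CPM (counts scaled by the animal's total of allele-assigned counts) in this animal, against 63.8 to 86.7 CPM in the other 5, whose median was 14.4 times higher. The polionotus allele was at 49.4 CPM, against 32.9 to 48.0 CPM, or 1.31 times the median of the others. Both alleles together were at 54.2 CPM, which is 0.496 times the median of the other 5 (96.6 to 134.7 CPM). The departure was thus seen in the counts of the maniculatus allele, while the polionotus allele stood just above the range of the other animals.

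**Figure D2:**
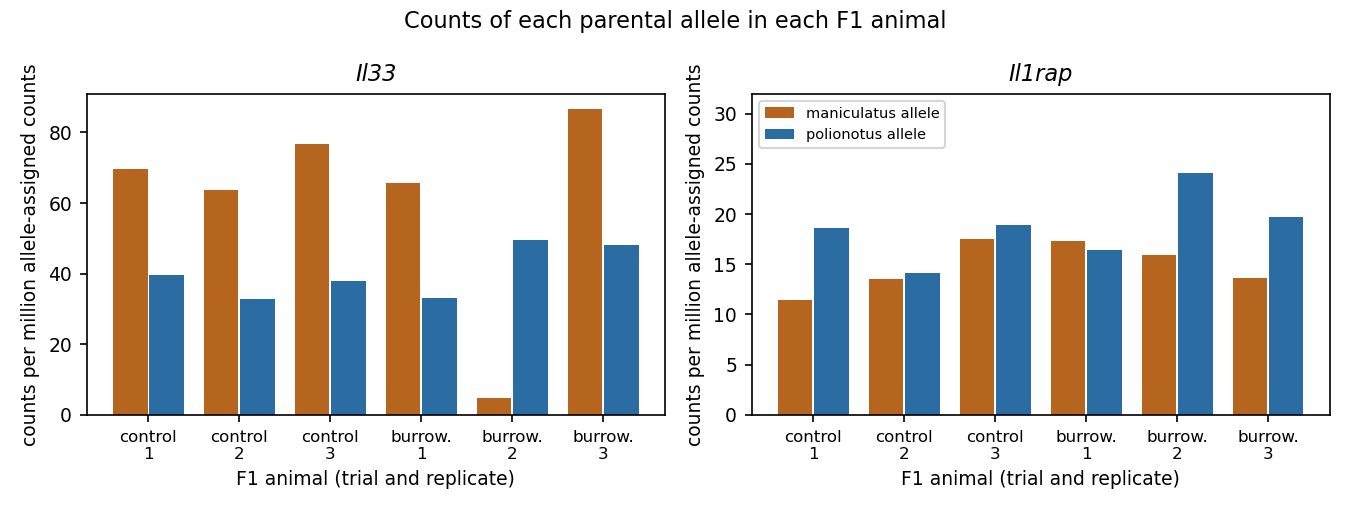
Counts of the maniculatus and the polionotus allele of Il33 and Il1rap in each of the 6 F1 animals, in CPM; each bar is 1 allele in 1 animal, and the 2 vertical scales differ. The maniculatus bar of Il33 is the taller one in 5 animals and falls to 4.83 in burrowing replicate 2, while the bars of Il1rap differ less, with polionotus shares of 48.6 to 61.8%.

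Parental brains and hybrid alleles thus each held a low and a high maniculatus level of Il33, in opposite proportions. Il33 was chosen for the library that departed in each of these sets. That each set held 2 levels therefore follows from the choice, and the rarer level rests on 1 library in each. The low level was seen in 5 of 6 parental maniculatus libraries and on the maniculatus allele of 1 of 6 hybrids. In those parental libraries the polionotus mean was 8.72 times higher, and in F1 burrowing replicate 2 the polionotus allele gave 10.2 times the counts of the maniculatus allele. The high level was seen in 1 parental library, at 1.46 times the polionotus mean, and on the maniculatus allele of 5 hybrids, at 1.75 to 2.02 times the polionotus allele. TPM and allele CPM are different scales, so only these ratios within a table are set side by side, and the cause of the 2 levels was not tested.

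The 2 departing libraries set most Il33 differences of the design. The difference *P. polionotus* minus *P. maniculatus* was 2.15 on the log2(TPM + 1) scale, and 2.68 without maniculatus control replicate 3. The difference burrowing minus control in *P. maniculatus* was -1.15, and -0.084 without that library. In *P. polionotus* it was -0.064, with the 3 burrowing libraries spread on both sides of the 3 controls. The species by trial difference was 1.09, and 0.02 without maniculatus control replicate 3.

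The same held in the hybrids. Summed over alleles, Il33 differed between trials by -0.17 (log2, burrowing minus control), and by 0.14 without F1 burrowing replicate 2. The log2 ratio of the polionotus over the maniculatus allele was -0.42 over 6 animals and -0.93 without that animal. The difference of that ratio between trials was 1.20, and 0.01 without it. Without those 2 libraries the trial differences of Il33 thus lay between -0.084 and 0.14. The species and allele differences had opposite signs.

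Il1rl1, the ST2 chain that binds interleukin-33, was listed at or near 0 in every parental library. The maniculatus control libraries held 0.0143, 0.0368 and 0.0280 TPM and the maniculatus burrowing libraries 0.0585, 0 and 0.0904 TPM. The polionotus control libraries held 0, 0.0151 and 0.0432 TPM and the polionotus burrowing libraries 0.0281, 0.00832 and 0.0425 TPM. The groups overlapped, with species means of 0.0380 ± 0.0325 TPM (maniculatus) and 0.0229 ± 0.0180 TPM (polionotus; SD, n = 6). The gene was under the minimum mean of 1 TPM used for tests. With no minimum, its species difference was -0.021 (log2(TPM + 1), SE 0.025) and did not pass limma's test (adjusted p = 0.52). Maniculatus control replicate 3, with the most Il33, held 0.0280 TPM of Il1rl1, in the middle of its group.

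Il1rap, the accessory chain, was measured at a similar level everywhere. Its libraries held 4.44, 4.69 and 5.59 TPM (maniculatus control), 4.76, 5.68 and 5.59 TPM (maniculatus burrowing), 4.48, 4.36 and 5.17 TPM (polionotus control) and 4.19, 4.35 and 5.12 TPM (polionotus burrowing). All 4 groups overlapped. The species means were 5.12 ± 0.553 TPM (maniculatus) and 4.61 ± 0.424 TPM (polionotus; SD, n = 6). On the log2(TPM + 1) scale, *P. polionotus* minus *P. maniculatus* was -0.12 (SE 0.071), which did not pass limma's test (adjusted p = 0.17), in a comparison in which 7529 of 14366 genes (52.4%) passed. It did pass when libraries were scaled to a common median (-0.19, adjusted p = 0.0157) or quantile normalised (adjusted p = 0.0122), so the call depends on the scaling. Leaving out any 1 of the 12 libraries gave -0.16 to -0.083 (limma adjusted p = 0.0879 to 0.34).

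Neither trial nor its difference between species moved Il1rap past the threshold. Burrowing minus control was 0.10 (log2, SE 0.10) in *P. maniculatus*, where limma called 1 of 14366 genes (0.00696%) and 291 had an unadjusted p under 0.05. It was -0.032 (SE 0.10) in *P. polionotus*, where limma called 0 genes (0.0%) and 446 had such a p. The species by trial difference was -0.14 (SE 0.14), with 0 genes called by limma (0.0%) and 415 reaching that level unadjusted. Adjusted p-values for Il1rap in these 3 limma contrasts were 1, 0.998 and 0.992.

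In the hybrids the 2 alleles of Il1rap differed less than those of Il33. The polionotus share was 61.8% in F1 control replicate 1 (131 maniculatus and 212 polionotus counts), 51.1% in replicate 2 (170 and 178) and 52.0% in replicate 3 (943 and 1021). In the burrowing hybrids it was 48.6% (456 and 431 counts), 60.2% (462 and 698) and 59.1% (306 and 443) in replicates 1 to 3. The mean share was 55.5 ± 5.55% (SD, n = 6), and the animal that stood apart in Il33, F1 burrowing replicate 2, lay within the range of the others here.

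The polionotus allele of Il1rap exceeded the maniculatus allele in 5 of 6 animals, by 0.32 on the log2 scale (SE 0.12). This missed the threshold of edgeR's quasi-likelihood test (adjusted p = 0.0661), in a comparison in which 6641 of 11928 genes (55.7%) passed. DESeq2 placed it just under the threshold (0.32, adjusted p = 0.0418), as did edgeR without F1 burrowing replicate 1 (0.40, adjusted p = 0.0388). Scaling each allele by its own total gave 0.16 (adjusted p = 0.31), and moved the median of all genes from 0.11 to -0.054.

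The allele ratio of Il1rap differed between trials by 0.063 (log2, SE 0.27, adjusted p = 1), where edgeR called 27 genes (0.226%), 26 higher (0.218%) and 1 lower (0.00838%). Its summed level was 30.1, 27.6 and 36.4 CPM in the control hybrids and 33.8, 40.01 and 33.3 CPM in the burrowing hybrids. The trial difference of 0.17 (log2, SE 0.14) did not pass edgeR's test (adjusted p = 0.965), which called 0 of 11928 genes (0.0%), while 90 had an unadjusted p under 0.05 and DESeq2 called 2.

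Among the other interleukin-1 family ligands, Il1rn was lower in *P. polionotus* and on the polionotus allele. Il1rn encodes the antagonist that occupies the interleukin-1 receptor without signalling. Control and burrowing libraries of *P. maniculatus* held 1.83 to 3.01 TPM and those of *P. polionotus* 0.364 to 1.43 TPM, with no overlap, and means of 2.52 ± 0.454 and 0.794 ± 0.420 TPM (SD, n = 6). The species difference was -0.996 (log2(TPM + 1), SE 0.15, limma adjusted p = 0.00024). Il1rn reached the minimum mean of 1 TPM for this test only through *P. maniculatus*. Its place among the genes tested and called lower thus depends on the species in which it was high. In the hybrids the polionotus allele was lower by a log2 ratio of -1.59 (SE 0.19, edgeR adjusted p = 0.000604), with polionotus shares of 17.2 to 40% on 15 to 121 counts per animal. Maniculatus control replicate 3 had the lowest Il1rn of its species, at 1.83 TPM.

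Il1rn was the only ligand besides Il33 that reached the minimum mean of 1 TPM, of 7 others in the table. It did so only through *P. maniculatus*, since its polionotus mean of 0.794 TPM was under that minimum. The interleukins Il1a (0.421 against 0.107 TPM) and Il1b (0.162 against 0.0756 TPM), which bind the interleukin-1 receptor, were under it in both species. So was Il18 (0.551 against 0.633 TPM, maniculatus first). Without that minimum limma called 4 of the 7 ligands, beside 9060 of all 19376 genes (46.8%).

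Of the other family receptors, 2 of 7 in the table were tested between species and 1 was called, beside the 32.6% of all genes called higher in *P. polionotus*. Il1rapl2, which encodes a relative of the accessory chain, rose from 1.55 ± 0.127 TPM in the maniculatus libraries to 1.99 ± 0.254 TPM in the polionotus libraries (0.23, SE 0.065, limma adjusted p = 0.0125). Sigirr, which encodes a receptor that dampens signalling of the family, was at 6.02 ± 2.09 and 6.54 ± 1.74 TPM (adjusted p = 0.622). Il18r1, the interleukin-18 receptor chain that binds the ligand, was under the minimum with means of 0.363 TPM (maniculatus) and 1.31 TPM (polionotus), and its libraries did not overlap (0.234 to 0.548 against 1.18 to 1.43 TPM). Its partner chain Il18rap ran the other way, at 0.618 and 0.240 TPM. With no minimum, 5 of the 7 receptor genes were called, beside 46.8% of all genes.

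Genes that carry the signal inside the cell, from Myd88 to NF-kappaB and the MAP kinases, were called in both directions between species. Of 29 tested, 4 were higher and 2 lower in *P. polionotus*, with a median of 0.034 against 0.055 over all genes, and 32.6% and 19.8% of all genes called in these directions. Under quantile normalisation or median scaling the counts became 3 higher and 8 lower. They were 5 and 2 without maniculatus control replicate 3, and 5 and 3 without polionotus control replicate 2.

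Rela, the NF-kappaB subunit p65, averaged 29.5 ± 2.004 TPM over maniculatus libraries and 41.9 ± 3.61 TPM over polionotus libraries (0.49, SE 0.064, limma adjusted p = 9.72e-05). Its highest maniculatus library was the one with high Il33, control replicate 3, at 32.4 TPM, still under the lowest polionotus library at 37.0 TPM. Mapk3, which encodes the kinase ERK1, was also higher (421 against 505.5 TPM, 0.26, adjusted p = 0.00121). Mapk8, which encodes the kinase JNK1, was lower (67.9 against 58.3 TPM, -0.22, adjusted p = 0.00392). Jak2, a cytokine receptor kinase that lies 8 genes from Il33 in RefSeq's gene order, was lower too (11.03 against 9.79 TPM, adjusted p = 0.00491). All 4 kept their direction and call under both other scalings. Mapk3 (467.1 TPM) and Mapk8 (69.4 TPM) were also highest in control replicate 3 among the maniculatus libraries, while Jak2 (10.8 TPM) was not. Of 30 signalling genes, 12 were above and 5 below all other 5 maniculatus libraries there.

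Of the genes known to respond to interleukin-33 in other tissues, 6 of 19 in the table reached the minimum, and 2 were higher and 2 lower in *P. polionotus*, beside 32.6% and 19.8% of all genes (median -0.096, against 0.055 over all genes). Il5, a cytokine of type 2 immunity, was at 0.306 to 0.642 TPM in the maniculatus libraries and 3.46 to 5.82 TPM in the polionotus libraries (1.95, SE 0.10, limma adjusted p = 7.76e-08). It reached the minimum only through *P. polionotus* (mean 4.74 TPM, against 0.482 TPM in *P. maniculatus*). Its place among the genes tested and called higher thus depends on the species in which it was high. Maniculatus control replicate 3, high in Il33, held 0.523 TPM of Il5, inside the range of its species. Icam1, an adhesion molecule for leukocytes, was at 2.72 and 3.45 TPM (adjusted p = 0.0155). Vcam1, another such molecule, was lower in *P. polionotus* (15.2 against 12.3 TPM, -0.28, adjusted p = 0.00691), as was Ptgs2, which encodes cyclooxygenase 2 and is also induced by neuronal activity (51.8 against 36.8 TPM, -0.48, adjusted p = 0.0117). The counts called between species were the same under both other scalings and without maniculatus control replicate 3, maniculatus burrowing replicate 2 or polionotus control replicate 2. In maniculatus control replicate 3, Vcam1 was the highest of its species (18.5 TPM) and Ptgs2 the lowest (41.05 TPM). Of the 19 response genes, 5 were above and 1 below all other 5 maniculatus libraries there. A link of these levels to Il33 was not tested.

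None of the ligand, receptor, signalling or response genes was called between trials by limma in either species or by edgeR in the hybrids. Over all genes, 1 of 14366 (0.00696%) was called in *P. maniculatus*, 0 of 14366 in *P. polionotus* and 0 of 11928 in the hybrids. The absence of calls is thus no result about these lists. By allele in the hybrids, 7 of 24 signalling genes were higher and 8 lower on the polionotus allele, and 2 of 7 response genes were higher and 1 lower, beside 34.2% and 21.5% of all genes. Of 3 receptor genes with allele counts, 0 were called by edgeR over 6 animals, 1 by DESeq2 and 2 by edgeR without F1 burrowing replicate 2. Il18r1 had a log2 allele ratio of 1.50 (SE 0.58, adjusted p = 0.0687), Il1rl2 of 0.62 (SE 0.40, adjusted p = 0.22) and Sigirr of 1.20 (SE 0.81, adjusted p = 0.247). Shares of Sigirr ran from 38.5 to 94.4%, with 3 animals above 90% and 3 below 50%.

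Marker sums of oligodendrocytes, astrocytes and microglia were above those of the other maniculatus libraries in maniculatus control replicate 3. Oligodendrocyte markers (myelin genes such as Mag, Mobp and Cldn11) summed to 3787 TPM there, against 2880 to 3419 TPM in the other 5 maniculatus libraries, and 11 of 14 were above all 5. Astrocyte markers (Gja1, Aqp4, S100b and others) summed to 7244 TPM against 6200 to 6830 TPM, with 10 of 13 above all 5. Microglial markers (Trem2, P2ry12 and others) summed to 340.5 TPM against 258.3 to 331.9 TPM, with 6 of 12 above. P2ry12 was among those above, while Trem2, Gpr34 and P2ry13 were within the range of their species. Relative to the median of the other 5 these sums were 1.24, 1.14 and 1.22 times as high, beside 12.2 times for Il33. None of these markers was at 0 in all libraries, and the part of the glial markers in the Il33 level was not tested. In whole-brain RNA, fewer cells of a type and less RNA per cell cannot be told apart.

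Of the remaining marker lists, 3 lay outside the range of the other 5 libraries. Oligodendrocyte precursor markers summed to 0.926 times and neuron markers to 0.963 times the median of the other 5, both below that range. Endothelial (0.932), meningeal (1.21), choroid plexus (1.054), mast cell and lymphocyte (1.08) and blood markers (1.07, 1 gene, Alas2) were within that range. Hox genes that mark hindbrain and spinal cord position were above it, at 1.24 times, as far as the oligodendrocyte sum. Between species, the sums of oligodendrocyte markers were 2750 to 3157 TPM and those of astrocyte markers 5721 to 6488 TPM in *P. polionotus*, thus no higher than in the maniculatus libraries with low Il33. Microglial sums were higher in *P. polionotus*, at 368.3 to 427.1 TPM, than in any maniculatus library. Limma called 4 oligodendrocyte markers higher and 4 lower, 1 astrocyte marker higher and 4 lower, 5 microglial markers higher and 3 lower, and 8 of 10 precursor markers higher and 0 lower, beside 32.6% and 19.8% of all genes. Quantile normalisation and median scaling made the oligodendrocyte counts 2 higher and 6 lower, and left 6 and 7 precursor markers higher. Without polionotus control replicate 2 the oligodendrocyte counts were 2 and 3, and without maniculatus control replicate 3 they were 4 and 3. Without maniculatus burrowing replicate 2 they were 3 and 4. Astrocyte counts were 1 higher and 3 lower without maniculatus control replicate 3, and the same without maniculatus burrowing replicate 2. Precursor markers called higher numbered 7 without maniculatus control replicate 3 and 9 without maniculatus burrowing replicate 2.

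**Figure D3:**
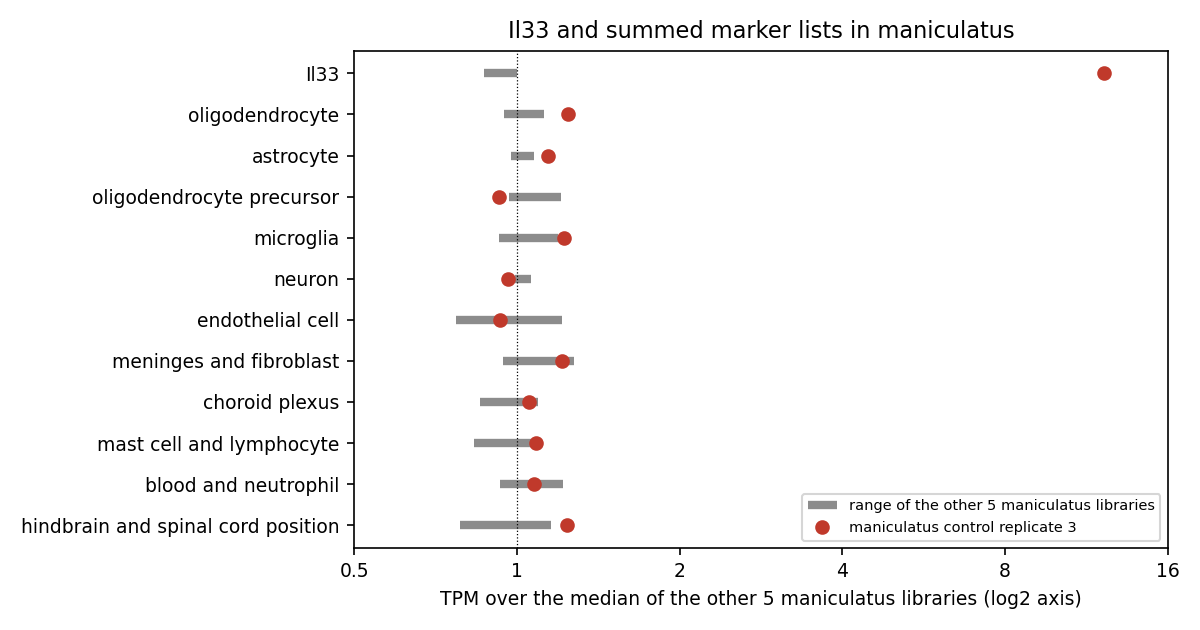
Il33 and the summed TPM of 11 marker lists in maniculatus control replicate 3 (red dots), each over the median of the other 5 maniculatus libraries, on a log2 axis; grey bars span those 5 libraries. Il33 is at 12.2 while the marker sums lie between 0.926 and 1.24.

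Few genes were as far out as Il33 in that library. Il33 was chosen for its value there, so its high rank follows from the choice and is given as a description only. Of 14355 genes with a median above 0 in the other 5, 74 were at least 2-fold higher in maniculatus control replicate 3 and 4, Il33 included, were as high as Il33 or higher. The other 3 were unnamed loci, LOC102926519, LOC107400602 and LOC102904657 (named after their values were seen). Each of them had another maniculatus library at or near its level, which Il33 had not.

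The genes whose pattern was most like that of Il33 were ranked by correlation, and the library that stood apart in Il33 weighs heavily in each ranking, so a step in that library follows from the choice. Over the 12 parental libraries these included Cecr5 (Pearson's r = 0.978 on log2(TPM + 1)), Tmbim1 (0.95), LOC102903429 (0.945) and Pcsk6 (0.943). Cecr5 was at 5.00 TPM in maniculatus control replicate 3, 1.50 to 1.73 TPM in the other maniculatus libraries and 3.18 to 4.57 TPM in *P. polionotus*. Over the 6 maniculatus libraries alone they were Slc17a6 (0.996), Cecr5 (0.995), Rab32 (0.992), Papss1 (0.992) and Dimt1 (0.991). Slc17a6, a vesicular glutamate transporter, was at 46.7 TPM against 35.5 to 36.3 TPM, and Rab32, a small GTPase, was at 34.7 against 21.7 to 22.8 TPM. Over the 6 hybrids, on log2(CPM + 1), they were Cops6 (0.996), Eif4e2 (0.988), Mettl22 (0.982), Tnni1 (0.98) and Txndc17 (0.98), all lowest in F1 burrowing replicate 2. Among all of these, Pcsk6 and Slc17a6 are on the chromosome of Il33 in RefSeq's table. Cecr5 and LOC102903429 were not found in that table, so their chromosome is not known here.

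The genes next to Il33 did not share its level in maniculatus control replicate 3. In RefSeq's gene order Il33 lies between Ranbp6, an importin-like gene, and Tpd52l3, with Ermp1 and Mlana beyond Ranbp6, and Uhrf2 and Gldc beyond Tpd52l3. Ranbp6 was at 167.5 TPM in that library and at 151.3 to 174.0 TPM in the other 5. Uhrf2 was at 17.4 against 16.0 to 17.2 TPM, and Gldc, which encodes the glycine-cleaving enzyme of astrocytes, was at 7.59 against 7.05 to 7.73 TPM. Ermp1 was at 28.9 against 24.1 to 28.1 TPM, and Ric1 at 5.37 against 4.73 to 5.29 TPM. The rise in that library was thus 12.2-fold in Il33 and small or absent in these neighbours. Pdcd1lg2, Mlana, Tpd52l3, Mbl2 and Dkk1 were all under 1 TPM in all maniculatus libraries. Of these, Dkk1 was above the other 5 in maniculatus control replicate 3 (0.582 against 0.128 to 0.420 TPM). Pdcd1lg2, Mlana, Tpd52l3 and Mbl2 lay within the range of the other 5 there.

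In F1 burrowing replicate 2 the allele share of neighbouring genes also departed, by less and in both directions. Ranbp6 had a polionotus share of 72.9% there and 59.6 to 61.5% in the other hybrids. Ermp1 was at 65.2% against 68.8 to 72.1%, Uhrf2 at 52.0% against 54.7 to 57.8% and Gldc at 52.1% against 57.1 to 58.7%. Farther along the same side as Ranbp6, Slc1a1, a glutamate transporter gene, was at 78.6% against 42.0 to 44.5%, and Cdc37l1 at 75.4% against 48.8 to 54.4% (both named after their values were seen). Farther still on that side the shares departed the other way, at 10.1% against 50.1 to 51.4% for Zfand5, 32.9% against 48.0 to 50.01% for Gda and 33.3% against 44.8 to 49.2% for Abhd17b. Prkg1, Minpp1 and Atad1, on the other side and chosen in the same way, lay between -2.51 and 0.894 points from the mean of the others. Of these, Prkg1 was below the range of the others (66.5% against 67.7 to 70.7%). Some genes on that side departed more, such as Stambpl1 (45.2% against 47.1 to 64.6%) and Hectd2 (57.0% against 58.4 to 72.4%). Lipa there was above the range of the others (55.4% against 53.1 to 54.2%).

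Il33 was the gene farthest out among those. Its share in F1 burrowing replicate 2 lay 56.6 points from the mean of the other 5 hybrids. Il33 was chosen for its share in this animal, so its rank here follows from the choice and is a description only. Of 9354 genes with at least 100 counts in every hybrid, 427 lay more than 25 points out in this animal, against 168 to 286 in the others. The genes at least as far out as Il33 were Pdha1, Ogfod2 and Npas2 (named after their values were seen). Marker sums in this animal were within the range of the other 5 for oligodendrocytes, astrocytes, microglia and neurons. They were above it for precursors, endothelium, meninges (205.0 against 172.5 to 188.9 CPM) and the 1 mast cell and lymphocyte gene with counts, and below it for choroid plexus (174.6 against 177.4 to 251.6 CPM).

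The genes on either side of Il1rl1, which has no row in the count table used here, departed in the opposite direction in the same animal. Il18r1 had a polionotus share of 30.8% in F1 burrowing replicate 2 and 72.2 to 89.3% in the other 5, on as few as 28 counts. Il1rl2, an interleukin-36 receptor chain, had 27.4% against 57.1 to 73.8%. Slc9a4 and Slc9a2, sodium-proton exchanger genes near them, had 27.9% against 76.0 to 81.4% and 35.2% against 73.1 to 77.8%. These 4 genes were named after their values were seen, as were those that follow. The fall was not confined to them on the side of Il1rl2. Npas2, named above and 10 places from Il1rl1, had 12.1% against 61.6 to 76.4%. Txndc9, 18 places away, had 41.4% against 88.7 to 91.0%, and Actr1b, 33 places away, 45.3% against 73.5 to 75.3%. Sema4c and Cnnm4, farther still, departed the other way, with 62.1% against 41.4 to 46.4% and 70.6% against 46.6 to 50.2%. The 95% Wilson intervals of Slc9a4 in that animal (24.9 to 31.2%) and in the lowest of the others (70.3 to 81.0%) were far apart. Its maniculatus allele was at 19.2 CPM there against 4.15 to 4.75 CPM in the others. Whether the departures at Il33 and around Il1rl1 have 1 source was not tested.

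**Figure D4:**
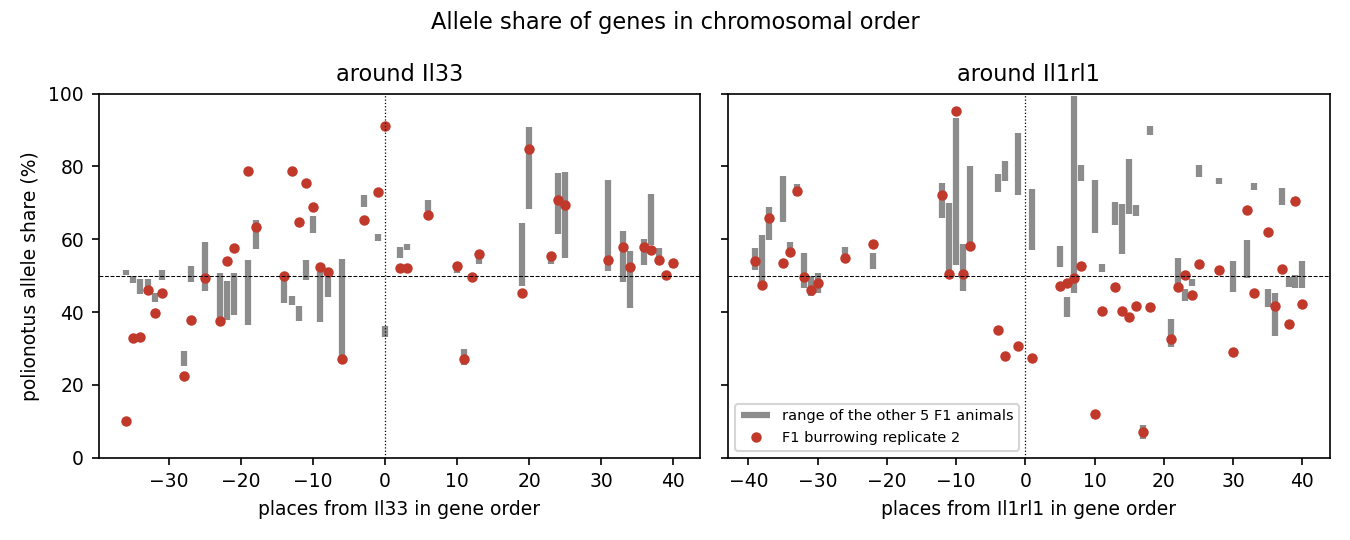
Polionotus allele share, in percent, of genes within 40 places of Il33 (left) and Il1rl1 (right) in RefSeq's gene order, for F1 burrowing replicate 2 (red dots) and the range of the other 5 hybrids (grey bars); the dashed line marks equal alleles. Il33 is at 91.1% against 33.1 to 36.3%, and Slc9a4, Il18r1 and Il1rl2 fall to 27.4 to 30.8%, below the bars of the other animals. Genes farther to the right also depart, such as Npas2 (12.1%, below its bar) and Cnnm4 (70.6%, above its bar).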

How the data were processed

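For the 12 parental libraries the authors deposited TPM, and for the 6 hybrids whole-number counts of each gene on each allele. STAR 2.4.2a is the aligner named per the submitters' processing notes. No source used here names the build, the annotation or the way reads were given to an allele, so no coordinates are printed, and a bias towards 1 allele was not tested. Allele columns were read as *P. maniculatus* (BW) and *P. polionotus* (PO) from the order of the cross in the labels. A row of the TPM table that names no gene (0.789% to 2.48% of a library) was left out.

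Members and gene lists were chosen with earlier results of these data known, and members were kept out of the list counts. Parental values were tested with limma 3.58.1 (R 4.3.3) on log2(TPM + 1), with 1 mean per group, over the 14366 genes whose mean reached 1 TPM. Fold changes on that scale understate changes of low genes. Hybrid counts summed over alleles were tested with edgeR 4.0.16 (quasi-likelihood, TMM). Allele counts were tested with the animal as a block and a minimum mean of 20 counts. Tests were two-sided, p-values were Benjamini-Hochberg adjusted over all genes of a comparison, and the threshold was 0.05. An allele test planned for Il33 was not used, because its share in 1 hybrid was a reason for choosing it. Scripts were tested on simulated data.

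Alternatives were DESeq2 1.42.0, other scalings, pseudocounts and minimums, a replicate block and leaving out each library. Named genes were the members, the 5 genes best correlated with Il33 in each set of libraries (1 of them is not reported here), 5 neighbours on either side in RefSeq's table (only for gene order, since builds may differ; 84.7% and 85.1% of the names of the 2 tables matched), and up to 4 called genes per list. Per-animal shares carry 95% Wilson intervals. At most 0.104% of expressed genes had identical values in 2 libraries of a group.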

Additional observations from a re-analysis of the deposited data

Results flagged for a closer look

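Of 38 groups of 6 libraries looked at for Il33, its receptor genes and its neighbours, 8 held a library whose gap to the others passed Dixon's criterion. Chance meets it in about 5% of groups, but over all genes it was met in 8.67% (maniculatus TPM), 11.8% (polionotus TPM), 9.06% (summed CPM) and 16.5% (allele share), so these 8 are values to look at and no test. The first 2 below are the values for which Il33 was chosen. Il33 in *P. maniculatus* was at 33.7 TPM in control replicate 3 and 2.41 to 2.77 TPM in the others. Its polionotus share was 91.1% in F1 burrowing replicate 2 and 33.1 to 36.3% in the others. In the same hybrid the share of Ranbp6 was 72.9% and that of Gldc 52.1%, and the summed levels were 101.0 CPM for Uhrf2 (70.9 to 80.5 in the others) and 147.1 CPM for Gldc (92.2 to 109.4). Tpd52l3 was at 0.472 TPM in maniculatus burrowing replicate 3 and 0.432 TPM in polionotus control replicate 3, and listed at 0 in the other libraries of each species. The summed Il33 level of F1 burrowing replicate 2 did not pass (gap over range 0.527, critical value 0.625).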

How the results depend on the processing

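Il1rap differed between species by -0.19 with median scaling and -0.18 with quantile normalisation, both past the threshold, where the main value was not. By allele DESeq2 gave 0.32, past the threshold, and leaving out 1 animal gave 0.25 to 0.40. Leaving out 1 library moved its trial difference in *P. polionotus* between -0.10 and 0.031 and its allele by trial difference between -0.062 and 0.28, with a change of sign. Between trials Il33 ran from -0.28 to 0.24 in *P. polionotus*, positive without burrowing replicate 1, and from -0.495 to 0.14 in the hybrids, positive without burrowing replicate 2, when 1 library was left out. Leaving out 1 animal moved its allele difference between -0.93 and -0.28 and its allele by trial difference between 0.01 and 2.13. Genes called between trials in *P. maniculatus* numbered 0 with only the groups compared or a pseudocount of 0.1, and 1 to 6 with 1 library left out. In *P. polionotus* they numbered 3 with no minimum and 0 to 2 with 1 library left out. The species by trial term gave 1 with no minimum or a pseudocount of 5, and 0 to 2 with 1 library left out. In the hybrids DESeq2 called 2 genes between trials and 60 by allele and trial, the latter 10 to 73 with 1 animal left out. Scaling moved the calls of all genes higher and lower in *P. polionotus* from 4688 and 2841 to 3826 and 3857 (quantile), and by allele from 4074 and 2567 to 2932 and 4201 (own totals).

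Replicate numbers did not pair the libraries. Deviations of same-numbered libraries correlated at -0.584 to 0.254. With the replicate number as a block, Il1rap differed between species by -0.12 (limma adjusted p = 0.0526), and 7764 genes were called.

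Without depth, only the spread between libraries shows how precise a TPM value is. Il1rl1 is too low in every library for a trial or species difference to be read.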
